A study of Mus musculus with 12 samples.

Results

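The cytosolic ribosomal proteins were followed through 4 populations of sorted mouse liver cells. They were taken as the genes whose symbol is Rpl or Rps with its number, or Rplp or Rpsa, without a pseudogene suffix, and which had at least 10 counts in at least 3 libraries. The pattern matched 89 symbols and 84 passed the minimum, of 53599 genes in the count table. The 84 were 35 genes of the small subunit, 46 of the large subunit and the 3 stalk genes Rplp0, Rplp1 and Rplp2. Of the 5 left out, Rpl10l, Rpl39l, Rpl3l and Rps12l1 reached 10 counts in 0 libraries and Rpl32l in 1, and just inside the minimum Rps3a3 ranged from 8 to 20 counts and Rpl24 from 7 to 23.

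The study asked how the transcriptome changes while hepatocytes take on biliary identity in the injured adult liver. All 12 libraries came from mice labelled wild type that received AAV8-TBG-Cre, a virus in which the hepatocyte promoter TBG drives Cre. EGFP was read as the mark of hepatocytes and their descendants. From 1 week after the virus, all mice ate a diet with 0.1% DDC, a porphyrinogenic compound that injures bile ducts, and cells were sorted after 8 weeks of it. There was no group without the diet, and strain, age and the number of mice are not given in the sources used here.

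The 4 groups had 3 libraries each and were defined by the sort. Early cells were EGFP+ Cd24- Epcam-, which is the gate closest to hepatocytes. Intermediate cells were EGFP+ Cd24+ Epcam-, and full cells were EGFP+ Cd24+ Epcam+. BEC, biliary epithelial cells, were EGFP- Epcam+, so a hepatocyte descendant that Cre had missed would fall in this gate. Nothing in the labels says whether replicates came from separate mice, so each p-value measures only the spread between these libraries, which may be technical.

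A ribosome joins a small subunit, which decodes the messenger RNA, to a large subunit, which forms the peptide bond, and each subunit holds a set of proteins that are mostly present in a single copy. The P stalk on the large subunit, made of Rplp0 with Rplp1 and Rplp2, recruits the elongation factors. The messenger RNAs of these proteins are abundant and short, and most begin with a run of pyrimidines, the 5′ terminal oligopyrimidine or TOP motif, through which mTOR signalling adjusts their translation. Hepatocytes make most plasma proteins and devote much of their RNA to them, while cholangiocytes line the bile ducts.

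Because the TOP motif and a few upstream motifs are what ribosomal protein genes are known to share in sequence, RefSeq promoters (build GRCm38.p6) were read for the members, and 60 of the 84 had an entry. The files were counted on GRCm39, per the submitters' processing notes, so the coordinates printed here belong to RefSeq's build and not to the counts. A C followed by 4 or more of C or T on the gene's strand, between 20 bases before and 30 bases after the start, was found in 83.3% of the 60 members and in 56.2% of all 27025 genes with an entry. The 8 windows that follow run from 15 bases before the start to 15 bases from it, with the longest such run in capitals. Rpl7a, Rpl35 and Rpl15 are shown for their long runs, Rps27 as the parent of a paralog that changed, Rplp2 for the stalk, and Rps18, Rpl28 and Rpl13a because they were among the members with the largest decreases.
Rpl7a (chr2:26910792-26910821, plus strand): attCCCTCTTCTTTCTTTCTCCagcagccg
Rpl35 (chr2:39005117-39005146, minus strand): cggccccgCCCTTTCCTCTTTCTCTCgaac
Rpl15 (chr14:18270972-18271001, minus strand): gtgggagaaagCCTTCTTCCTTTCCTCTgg
Rps27 (chr3:90213634-90213663, minus strand): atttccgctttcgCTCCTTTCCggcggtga
Rplp2 (chr7:141447636-141447665, plus strand): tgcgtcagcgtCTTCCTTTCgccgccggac
Rps18 (chr17:33955651-33955680, minus strand): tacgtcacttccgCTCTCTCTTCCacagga
Rpl28 (chr7:4792950-4792979, plus strand): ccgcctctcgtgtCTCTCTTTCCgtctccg
Rpl13a (chr7:45128731-45128760, minus strand): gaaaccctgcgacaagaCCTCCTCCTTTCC

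Upstream motifs were searched on both strands of the whole 300-base entry, which spans 250 bases before the start and 50 after it. CCGGAAG, the core of the sites of ETS factors such as GABP, was in 41.7% of the 60 members and 9.93% of all genes with an entry. GGGCGG, the GC box, was in 63.3% and 38.2%, and AAGATGG, the core of YY1 sites, was in 16.7% and 7.28%. CTTTCC, which can lie inside the pyrimidine run, was in 51.7% and 29.3%. The 250 bases before the start are given for Rps27 and for its paralog Rps27l, because the counts of these 2 genes moved most differently among the paralog pairs compared. They are also given for Rplp0, the most abundant member per length. Capitals mark the ETS core, the YY1 core and the GC box on either strand, and these matches describe letters only.
Rps27 (chr3:90213649-90213898, minus strand): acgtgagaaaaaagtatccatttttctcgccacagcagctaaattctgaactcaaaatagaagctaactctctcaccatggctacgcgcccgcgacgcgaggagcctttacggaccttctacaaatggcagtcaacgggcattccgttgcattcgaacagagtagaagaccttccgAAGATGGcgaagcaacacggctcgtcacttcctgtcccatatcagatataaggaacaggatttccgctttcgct
Rps27l (chr9:66945836-66946085, plus strand): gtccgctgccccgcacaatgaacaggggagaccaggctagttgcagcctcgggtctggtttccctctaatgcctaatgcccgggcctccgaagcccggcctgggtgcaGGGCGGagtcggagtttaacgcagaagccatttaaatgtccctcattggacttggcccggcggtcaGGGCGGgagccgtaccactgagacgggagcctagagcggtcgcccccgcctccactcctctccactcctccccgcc
Rplp0 (chr5:115559217-115559466, plus strand): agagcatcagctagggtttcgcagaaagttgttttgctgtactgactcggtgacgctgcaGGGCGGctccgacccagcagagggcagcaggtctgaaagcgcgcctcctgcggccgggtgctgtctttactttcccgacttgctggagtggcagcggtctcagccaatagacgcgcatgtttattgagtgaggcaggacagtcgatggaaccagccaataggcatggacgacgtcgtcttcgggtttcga
Rps27 held AAGATGG once in these bases and neither of the other motifs, while Rps27l held GGGCGG 2 times and Rplp0 held it once. Rps27l has a second RefSeq entry with another start, not printed, whose 250 bases held GGGCGG 0 times.

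Library totals ran from 15112893 to 19731887 counts. Markers followed the labels. The 10 hepatocyte markers summed to between 101235 and 106028 CPM in early, 15179 to 19795 in intermediate, 3365 to 4414 in full and 2089.5 to 2755 in BEC. The 10 biliary markers summed to 953 to 1911 CPM in early, 9634 to 12603 in intermediate, 12605 to 15951 in full and 14789 to 18557 in BEC. Macrophage markers summed to 24.1 to 25.5 CPM in early, 29.7 to 37.5 in intermediate, 65.0 to 90.7 in full and 132 to 152 in BEC (7 of 7 genes detected in each group). Mitochondrial genes took 5.45% to 11.4% of counts in early, highest in replicate 2, 3.99% to 4.75% in intermediate, 2.2% to 2.48% in full and 2.58% to 3.43% in BEC. Erythroid markers were highest in early at 18.7 to 33.2, above every other library. Endothelial markers also reached their highest sums in early, at 13.8 to 20.6, but overlapped intermediate at 5.90 to 14.02. So did stellate and fibroblast markers, at 109.7 to 321 in early and 63.8 to 186.4 in intermediate. The markers of neutrophils, B cells and T and NK cells summed to at most 0.636, 0.411 and 0.419 CPM in any library, and how far any of these other cells contribute to the differences was not tested. CPM is the usual depth-scaled count, taken here on a library size multiplied by edgeR's TMM factor, which was 0.652 to 0.672 in early, 1.03 to 1.05 in intermediate, and 1.19 to 1.22 in full and BEC. The 50 most abundant genes took 31.2% to 35.9% of all counts in early and 14.9% to 16.8% in full and BEC.

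BEC replicate 1 stood apart among the BEC libraries. Of the 78 members above 25 CPM on average, 58 were lower in it than the mean of the other two, with a median log2 difference of -0.16. The differences ran from -1.07 for Rpl23a to 0.32 for Rps6, and they varied with the log2 of the median coding transcript length, or of the median transcript where none is coding, across the 84 members (Pearson r = 0.38, Spearman rho = 0.42, a description of 1 library). Genes named as ribosomal pseudogenes held 0.575 counts per 100 member counts in this library and 0.323 to 0.416 in the other 11.

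Members were measured with unequal certainty, since ribosomal protein genes have many processed copies in the genome and how multi-mapping reads were counted is not given in the sources used here. The 6 members under 25 CPM were Rpl13a, Rps10, Rpl6l, Rps3a2, Rpl24 and Rps3a3. Rpl13a, Rps10 and Rpl24 encode standard ribosomal proteins, yet they averaged 11.9, 2.87 and 0.988 CPM over the 12 libraries against 31.1 to 695 for the other 78. Rpl6l, Rps3a2 and Rps3a3 are processed pseudogenes in GENCODE M21. Values of these 6 are uncertain.

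Summed over the 84 genes, ribosomal protein counts made up the largest share of the library in intermediate cells. The share of all counts was 1.62%, 1.47% and 1.56% in early, 2.22%, 2.19% and 2.0% in intermediate, 1.96%, 1.84% and 1.91% in full and 1.76%, 1.91% and 1.98% in BEC. Every intermediate library was above every library of the other groups, and every early library was below them. The means were 1.55% ± 0.0774 (SD, n = 3), 2.14% ± 0.122, 1.90% ± 0.0622 and 1.88% ± 0.113. With the 50 most abundant other genes taken out of the totals, the means were 2.25% ± 0.0924 in early, 2.7% ± 0.162 in intermediate, 2.24% ± 0.0886 in full and 2.18% ± 0.111 in BEC, so that early libraries overlapped full and BEC while intermediate libraries were still above all others.

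On the TMM scale the order was different. Summed CPM was 23518 ± 1268 in early, 20402 ± 937 in intermediate, 15832 ± 706 in full and 15635 ± 895 in BEC, and full and BEC overlapped. A share of a bulk library does not tell fewer transcripts per cell from more RNA of other genes, and fewer cells of a type and less RNA per cell cannot be told apart. Large-subunit and stalk counts were 1.43 to 1.53 times those of the small subunit in every library, highest in the 3 early libraries at 1.5 to 1.53.

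**Figure D1:**
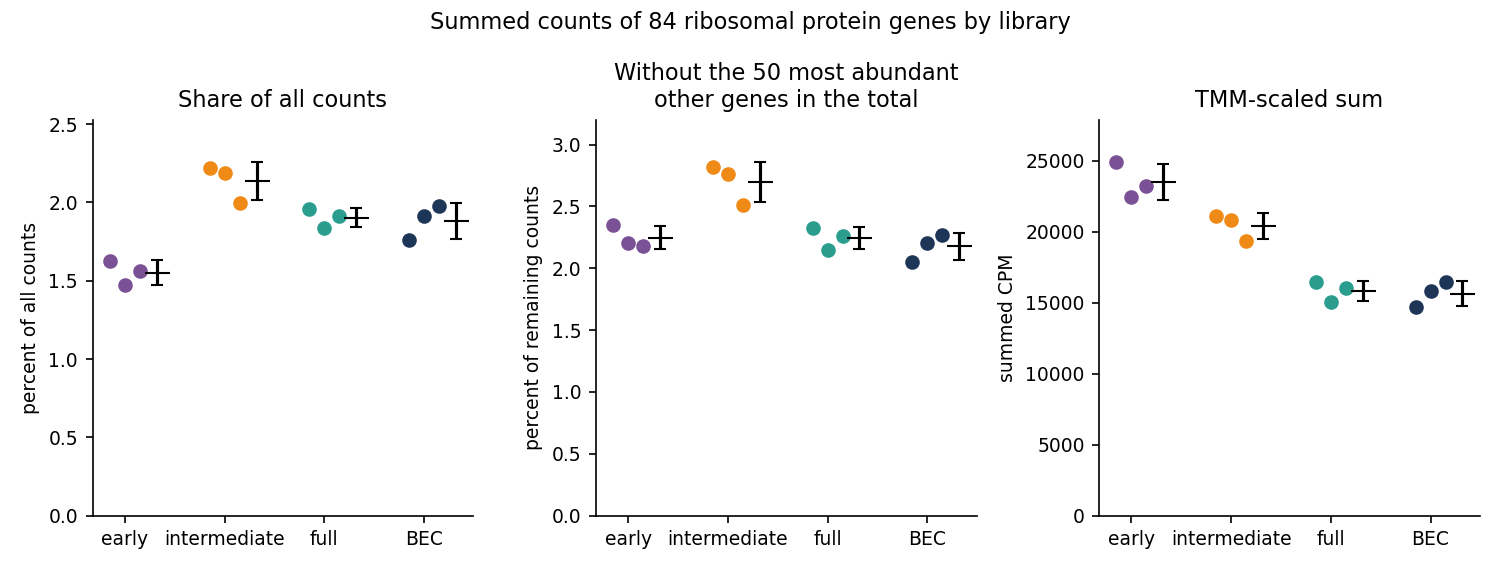
Summed counts of the 84 ribosomal protein genes in each of 12 libraries, as percent of all counts (left), as percent of counts without the 50 most abundant other genes (middle), and as TMM-scaled CPM (right). Points are libraries and bars show mean ± SD of 3; intermediate libraries are highest in the left and middle panels, and early libraries are highest on the TMM scale.

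Per kilobase of the median coding transcript, or of the median transcript for the 4 members that have no coding one, the most abundant members were the stalk protein Rplp0 at 814 CPM per kb, Rpl10, which acts in the last step of large-subunit maturation, at 743, the stalk protein Rplp1 at 713 and Rps2, which lies near the entry of the messenger RNA channel, at 627. The lowest were Rps3a3 at 0.974, Rpl24 at 1.46, Rps3a2 at 1.48 and Rpl6l at 1.52 CPM per kb. Rplp2, the partner of Rplp1 in the stalk, was at 430.0 CPM per kb, below Rplp1.

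**Figure D2:**
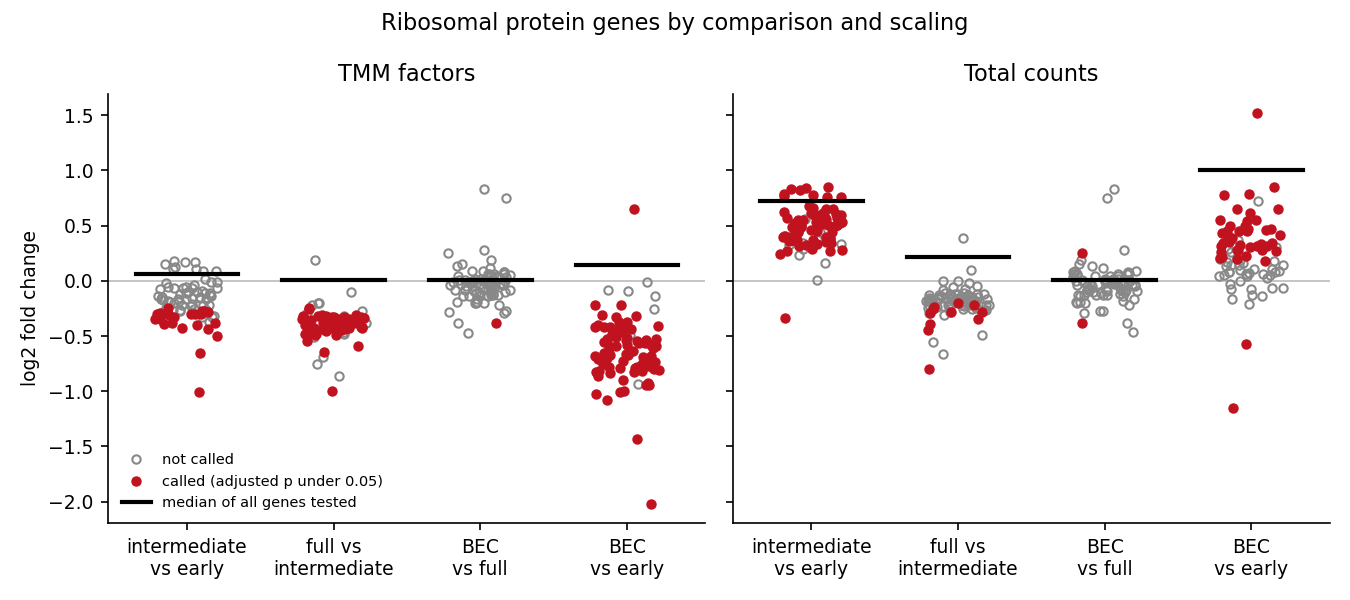
Log2 fold change of each of the 84 ribosomal protein genes in the 4 comparisons, with TMM factors (left) and with total counts as library size (right). Filled points passed an adjusted p under 0.05 and black lines are the median of all 16210 genes tested; with total counts the sign of most members flips to higher between intermediate and early and between BEC and early, while most members lie below the black line in both panels for every comparison, by little for BEC against full.

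From early to intermediate, 22 of the 84 members were lower and 0 were higher by edgeR's quasi-likelihood test on the TMM scale (adjusted p under 0.05), where 25.7% of all genes tested were lower and 28.7% higher. The share of members called lower, 26.2%, was near that of all genes in this fit. At an unadjusted p under 0.05, 0 members were higher. DESeq2 called 35 members lower (41.7%) and 0 higher, where 22.5% of all genes were lower and 21.8% higher. The median log2 fold change of members was -0.19, against 0.06 for all genes. With total counts as library size 71 members were higher and 1 lower, where 59.4% of all genes were higher and 10% lower, and the median was 0.48 against 0.72 for all genes. The distance of the members' median to the median gene, which a change of library scaling leaves nearly fixed by construction, was -0.25 on the log2 scale, but -0.15 with no filter and -0.08 with offsets for transcript length and GC content. Summed macrophage markers were higher in every intermediate library than in any early one, and the mitochondrial share and the erythroid markers (2.32 to 3.17 CPM in intermediate) were lower. Of the 6 macrophage genes tested, though, 1 was called higher and 1 lower on the TMM scale. The part of these markers and of the mitochondrial share in the counts was not tested.

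By subunit, 6 of 35 small-subunit genes, 15 of 46 large-subunit genes and 1 of the 3 stalk genes were lower on the TMM scale. Rps27l, a paralog of Rps27 known as a p53 target, was the strongest. It was at 177, 183 and 188 CPM in early and 92.2, 90.0 and 90.8 in intermediate, with no overlap, and fell by 1.0 on the log2 scale (SE 0.08, adjusted p = 1.65e-07). With total counts its fold change was -0.34 (adjusted p = 0.00143), the 1 member lower on that scale.

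Rpl13a, which can leave the ribosome to silence inflammatory messages in interferon-treated cells, was at 20.3, 18.4 and 20.4 CPM in early and 13.6, 12.2 and 11.9 in intermediate (-0.65 ± 0.14, adjusted p = 0.00166). Rps2 was at 981, 802 and 913 CPM in early and 648, 671 and 585 in intermediate (-0.50 ± 0.10, adjusted p = 9.03e-04). Neither overlapped between the groups, but with total counts their fold changes were 0.01 (adjusted p = 0.96) and 0.16 (adjusted p = 0.171). Among the smallest called changes were those of the large-subunit proteins Rpl37 (-0.25, adjusted p = 0.04) and Rpl14 (-0.27, adjusted p = 0.0147), and with total counts both were higher at 0.42 and 0.40. Without intermediate replicate 3, 14 members were called lower, where 3927 of 16829 genes were. Rpl37 and Rpl14 then missed the threshold (adjusted p = 0.146 and 0.069), as did Rpl37 without early replicate 1 (0.169) or intermediate replicate 2 (0.108).

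Among members with roles outside the ribosome, Rpsa, also known as the laminin receptor, was at 752, 769 and 727 CPM in early and 567, 576 and 529 in intermediate (-0.43 ± 0.09, adjusted p = 0.00117). Rps27a, made as a fusion with ubiquitin, was at 268 ± 14.9 and 204 ± 17.8 CPM (-0.40 ± 0.09, adjusted p = 0.00167). With total counts both were higher, at 0.24 (adjusted p = 0.0257) and 0.27 (adjusted p = 0.0142). Rps6, the substrate of S6 kinase, and Rps19, which acts in small-subunit maturation and is mutated in Diamond-Blackfan anaemia, had TMM-scale fold changes of -0.22 (adjusted p = 0.0635) and 0.17 (adjusted p = 0.285).

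Between intermediate and full most ribosomal proteins were lower on the TMM scale: 66 of 84 members were called lower and 0 higher by edgeR, where 19.8% of all genes tested were lower and 20.8% higher. At an unadjusted p under 0.05, 0 members were higher. DESeq2 called 62 lower and 0 higher, where 14.6% of all genes were lower and 18.5% higher. The members' median was -0.39, against 0.01 for all genes, and 83 of 84 fold changes were below 0. With total counts 11 members were lower and 0 higher (12.2% of all genes were lower, 32.3% higher), with a median of -0.19 against 0.21 for all genes. The share of members called lower was near that of all genes on that scale. The distance to the median gene was -0.40, and -0.23 with length and GC offsets. Summed macrophage markers were higher in every full library than in any intermediate one, and the mitochondrial share, the endothelial markers (5.90 to 14.02 CPM in intermediate, 1.91 to 4.28 in full) and the erythroid markers (0.213 to 0.786 CPM in full) were lower. Their part in these counts was not tested.

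Large-subunit genes made up 41 of the 66, of 46 measured, and small-subunit genes 25, of 35. The 3 stalk genes did not pass, at -0.10 for Rplp0, -0.35 for Rplp1 and -0.27 for Rplp2 (adjusted p = 0.368, 0.0895 and 0.0866). Rps27l again changed most. It was at 47, 41.2 and 48.1 CPM in full, all below the lowest intermediate value of 90.0, and fell by 1.0 on the log2 scale (SE 0.08, adjusted p = 4.93e-07), or by 0.80 with total counts (adjusted p = 3.00e-06).

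Rpl13a was at 7.18, 7.44 and 9.35 CPM in full (-0.65 ± 0.15, adjusted p = 0.0029). Rps18, a protein of the small-subunit head, was at 363, 351 and 312 CPM in intermediate and 243, 214 and 223 in full (-0.59 ± 0.12, adjusted p = 0.00133). Both were lower in every full library than in any intermediate one, and both were also called lower with total counts, at -0.45 and -0.39 (adjusted p = 0.0265 and 0.0156). Among the smallest called changes were those of Rpl3, which lies by the peptidyl transferase centre (-0.25), and Rpl22, a large-subunit protein needed in T cell development (-0.25, adjusted p = 0.0288 and 0.0251). Both missed the threshold with total counts, at -0.05 and -0.05, and also without intermediate replicate 1 or 2 or full replicate 2 or 3 (adjusted p between 0.0705 and 0.103), and so did Rpl3 without full replicate 1 (0.0549).

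Rpl5 and Rpl11, which bind the 5S ribosomal RNA and, when free, the p53 regulator Mdm2, were read together. Rpl5 was at 359, 339 and 325 CPM in early, 383, 369 and 349 in intermediate and 276, 261 and 286 in full. Rpl11 was at 342, 246 and 305 CPM in early, 252, 247 and 214 in intermediate and 189.6, 167 and 177 in full. Both were lower from intermediate to full (Rpl5 -0.42 ± 0.08, adjusted p = 0.00109, Rpl11 -0.42 ± 0.14, adjusted p = 0.0325), and early and intermediate libraries overlapped for both genes. With total counts Rpl5 passed at -0.22 (adjusted p = 0.0376) and Rpl11 did not, at -0.22 (adjusted p = 0.24). Rpl10 (-0.41), Rpl41, the smallest ribosomal protein (-0.42), Rps6 (-0.43) and Rps19 (-0.36) were among the 66 (adjusted p = 0.00141, 0.0233, 0.00238 and 0.0373), and with total counts these 4 did not pass, at -0.21, -0.22, -0.23 and -0.16. Without full replicate 2, 43 members were called lower, where 2473 of 16717 genes were. With offsets for transcript length and GC content 34 members were lower, where 20.9% of all genes were. With the replicate number as a block as well, 40 members were lower and 1, Rps4l, was higher (0.31, adjusted p = 0.0464), where 23.6% of all genes were lower and 22.3% higher.

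Full and BEC libraries, which differ in the EGFP label but share the Epcam+ gate, differed in few members. Of 84, 1 was lower and 0 were higher in BEC by edgeR on the TMM scale, where 10.6% of all genes tested were lower and 10.7% higher. At an unadjusted p under 0.05 there were 2 lower and 2 higher, and DESeq2 called 1 lower and 1 higher (9.3% and 9.47% of all genes). The members' median was -0.03 (all genes 0.00), and without BEC replicate 1 it was 0.01. Summed macrophage markers and the mitochondrial share were higher in every BEC library than in any full one, and summed hepatocyte markers were lower. Of the 6 macrophage genes tested 2 were called higher and 0 lower, and of the 10 hepatocyte genes 0 and 5. The part of these markers and of the mitochondrial share was not tested. The member called was Rpl7l1, a paralog of Rpl7. It was at 81.5, 78 and 84.9 CPM in full and 57.6, 66.5 and 63 in BEC, with no overlap (-0.39 ± 0.10, adjusted p = 0.0106), and at 117, 121 and 144 CPM in early and 95.3, 108 and 108 in intermediate before that. Its fold change was -0.33 without BEC replicate 1 (adjusted p = 0.0454) and it passed in 26 of 27 settings tried, the exception being a test against a minimum 1.2-fold change.

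Rplp0 was the second gene in reach of the threshold. It was at 805, 721 and 719 CPM in early, 662, 697 and 651 in intermediate, 643, 616 and 612 in full and 728, 750.4 and 744 in BEC. The BEC libraries were all above the full libraries, and the early libraries overlapped BEC. The difference between BEC and full was 0.25 ± 0.09, adjusted p = 0.0556, and it passed in 12 of 27 settings, among them the fit with the replicate number as a block (0.25, adjusted p = 0.0329), DESeq2 (0.26, adjusted p = 0.00134) and total counts (0.25, adjusted p = 0.0469). Rpl22l1 and Rpl23a, a protein at the exit of the peptide tunnel, were lowest in BEC replicate 1, at 12.9, 24.6 and 26.2 CPM in BEC and 55.7, 115 and 120.2 CPM in BEC, and did not pass (adjusted p = 0.169 and 0.234), though both did with no filter (-0.50, adjusted p = 0.0194, and -0.41, adjusted p = 0.0344).

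Set against early directly, BEC had 76 members lower and 1 higher on the TMM scale, where 33.0% of all genes tested were lower and 40.0% higher. The comparison shares the early and the BEC libraries with the steps already given and is not independent of them. The median of members was -0.62, against 0.14 for all genes. With total counts 42 members were higher and 2 lower (65.8% of all genes were higher, 16.2% lower), with a median of 0.24 against 1.0 for all genes. The distance to the median gene was -0.77 on the log2 scale, and -0.39 with length and GC offsets. Summed macrophage markers were higher in every BEC library than in any early one, though of the 6 genes tested 1 was called higher and 1 lower. The mitochondrial share and the endothelial (1.44 to 6.25 CPM in BEC), erythroid (0.385 to 1.23) and stellate and fibroblast markers (61.8 to 106.1) were lower there without overlap, and the part of these and of the macrophage markers in the counts was not tested.

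The largest decreases were those of Rps27l (-2.02 ± 0.08, adjusted p = 5.57e-11), Rpl13a (-1.44 ± 0.15, adjusted p = 8.84e-07) and Rpl28, a large-subunit protein (-1.08 ± 0.17, adjusted p = 6.80e-05). Rps27l and Rpl13a were also lower with total counts, at -1.15 and -0.57 (adjusted p = 8.57e-09 and 0.00311), and Rpl28 was at -0.21 (adjusted p = 0.269). Rpl28 was at 346, 278 and 307 CPM in early and 98.6, 165 and 178 in BEC, lowest in BEC replicate 1, and its fold change without that library was -0.85. The member called higher was Rps4l, a copy of the small-subunit gene Rps4x that is annotated without a coding transcript in GENCODE M21. It was at 41.3, 36.2 and 28.6 CPM in early, 36.3, 49.8 and 34.3 in intermediate, 48, 47.7 and 41.4 in full and 59.7, 59.2 and 47.6 in BEC (0.65 ± 0.16, adjusted p = 0.00234, with total counts 1.52), and each BEC library was above each early one. The smallest called decreases were those of Rps14, a small-subunit protein lost in the 5q- syndrome (-0.22 ± 0.09, adjusted p = 0.0381), and Rpl3 (-0.22 ± 0.08, adjusted p = 0.0273), and both were higher with total counts at 0.65 and 0.65. With length and GC offsets the fold change of Rps14 was 0.053, and 0.052 with the replicate block as well. Rps14 missed the threshold without early replicate 1 or 2 or BEC replicate 1 or 2 (adjusted p = 0.0939, 0.0633, 0.101 and 0.119), and Rpl3 without early replicate 1 or 3 or BEC replicate 2 (0.0846, 0.0568 and 0.09). By subunit, 31 small-subunit, 43 large-subunit and 2 stalk genes were lower. Across all 4 groups 78 of 84 members passed edgeR's F test, where 75.6% of all genes tested did.

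Length was set beside these values because the members are short. The members' longest transcripts had a median of 1054 bases in GENCODE M21, and other genes of similar length also had medians below 0 on the TMM scale, BEC against full aside. From early to intermediate the members of at least 500 and under 1000 bases had a median of -0.22 (33 genes), and the other 1012 genes of that length -0.18. From intermediate to full the medians were -0.40 and -0.24, and from early to BEC -0.66 and -0.31. For at least 1000 and under 2000 bases (32 members and 2858 other genes) the pairs were -0.20 and -0.16, -0.38 and -0.14, and -0.62 and -0.23. Measured against the median of other genes of the same length, the median member stood at -0.08, -0.24 and -0.43 in these 3 comparisons, and at -0.04 between BEC and full. By mean transcript length in place of the longest, the first of these was -0.047 and the last -0.023.

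Within the 84 genes, the fold change rose weakly with the log2 of the longest transcript: Pearson r was 0.28 from early to intermediate, 0.30 from intermediate to full, 0.04 between BEC and full and 0.32 from early to BEC (Spearman rho 0.22, 0.41, 0.16 and 0.37), and 0.11, 0.21, 0.12 and 0.23 with the log2 of the median coding transcript. These points share libraries and are given as a description. When a smooth trend of length and GC content was removed from every library, 28 members were called lower from early to intermediate (33.0% of all genes were), 34 from intermediate to full (20.9%) and 59 from early to BEC (38.1%), with medians of -0.16, -0.24 and -0.42.

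**Figure D3:**
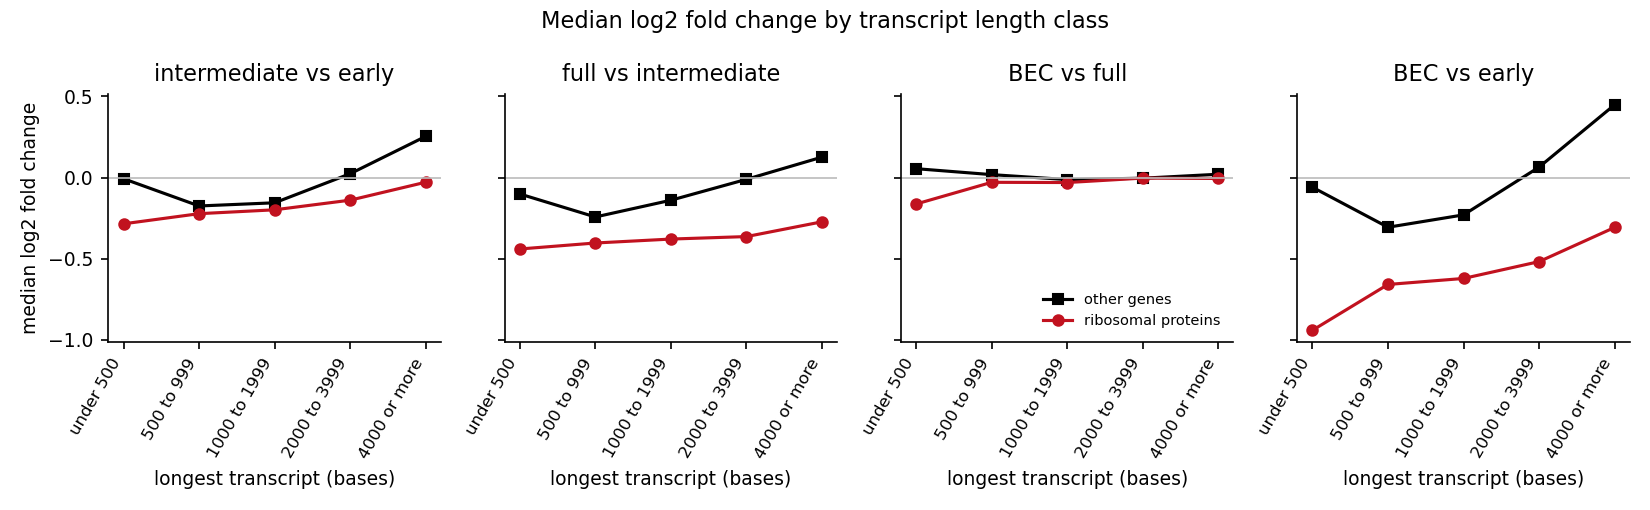
Median log2 fold change on the TMM scale by class of longest GENCODE M21 transcript, for ribosomal protein genes (circles; 5, 33, 32, 12 and 2 genes) and all other genes tested (squares), in the 4 comparisons. The circles lie below the squares in every class except 2000 to under 4000 bases between BEC and full; at 500 to under 1000 bases they lie at -0.22 against -0.18 from early to intermediate and at -0.66 against -0.31 from early to BEC.

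To see how members moved against each other, counts were also scaled to the members' own total, a setting chosen after the data were seen. This scale holds the members' summed counts equal in all libraries, so a shift of all members together cannot show on it. On that scale 6 members were higher and 3 lower from early to intermediate, 2 and 1 from intermediate to full, 0 and 1 between full and BEC, and 11 and 15 from early to BEC, while 36.6%, 43.3%, 10.1% and 57.4% of all genes were higher and 18.3%, 8.66%, 9.81% and 20% lower. Without BEC replicate 1, 13 members were higher and 10 lower from early to BEC. With all libraries the largest rises were those of Rps4l (1.25) and the stalk gene Rplp0. Rplp0 took 3.23, 3.21 and 3.1% of the ribosomal protein counts in early, 3.14, 3.35 and 3.37% in intermediate, 3.91, 4.09 and 3.82% in full and 4.97, 4.74 and 4.53% in BEC. The groups full and BEC did not overlap with each other or with the earlier ones (intermediate to full 0.26, adjusted p = 0.0273, and early to BEC 0.58, adjusted p = 4.69e-05). The difference between full and BEC did not pass within the total, at 0.27 (adjusted p = 0.0542). Rplp1 and Rplp2 did not pass from early to BEC, at -0.23 and 0.22 (adjusted p = 0.113 and 0.0519). Without BEC replicate 1 Rplp2 passed by edgeR, at 0.27 (adjusted p = 0.0189), and Rplp1 was at -0.09 (adjusted p = 0.440).

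In the small subunit, Rps15a, Rps14 and Rps19 rose within the total from early to BEC, by 0.50, 0.37 and 0.33 on the log2 scale (adjusted p = 4.99e-04, 0.00107 and 0.00897). Rps15a took 0.496, 0.547 and 0.559% of the total in early and 0.88, 0.72 and 0.672% in BEC, highest in BEC replicate 1. In the large subunit, Rpl22 and Rpl3 rose by 0.50 and 0.37 (adjusted p = 1.10e-04 and 0.00141). Rpl22 took 0.485, 0.562 and 0.507% in early and 0.749, 0.72 and 0.73% in BEC, with no overlap.

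Rps27l and Rpl13a fell within the total too, by 1.43 and 0.85 on the log2 scale from early to BEC (adjusted p = 2.88e-09 and 9.24e-05). The large-subunit members Rpl28, Rpl7l1, Rpl38, which is known for the translation of Hox messages, and Rpl11 fell by 0.50, 0.44, 0.43 and 0.34 (adjusted p = 0.00542, 0.00242, 0.0276 and 0.0137). Rpl28 took 1.39, 1.24 and 1.32% in early and 0.673, 1.04 and 1.08% in BEC, and Rpl38, Rpl28 and Rpl11 were each lowest in BEC replicate 1 of the BEC libraries. Without that library Rpl28 fell by 0.31 (adjusted p = 0.00646) and Rpl7l1 by 0.43 (adjusted p = 0.00767), while Rpl38 and Rpl11 did not pass, at -0.24 each (adjusted p = 0.112 and 0.0554). Rps27l, Rpl13a, Rps4l, Rplp0, Rps15a, Rps14, Rps19, Rpl22 and Rpl3 still passed in the same direction, with values of -1.45, -0.82, 1.14, 0.54, 0.38, 0.36, 0.42, 0.49 and 0.33. Rps15a and Rpl38 are outside the rule for named genes and were chosen after their values were seen.

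**Figure D4:**
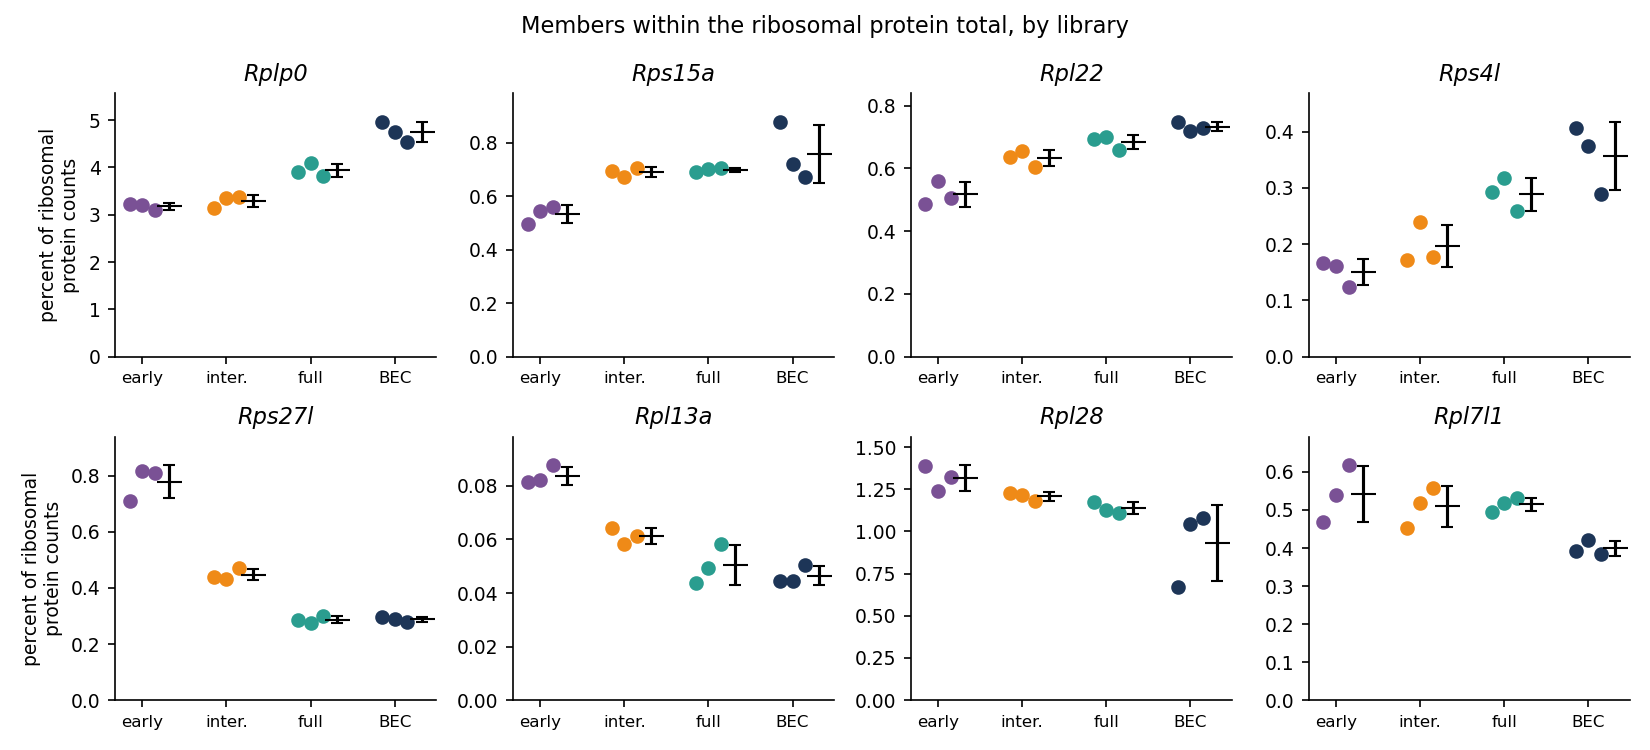
Counts of 8 members as percent of the summed ribosomal protein counts in each of the 12 libraries, by group, with mean ± SD of 3. Rplp0, Rps15a, Rpl22 and Rps4l (top) take larger shares in BEC than in early, Rps27l, Rpl13a, Rpl28 and Rpl7l1 (bottom) smaller ones, and BEC replicate 1, the first BEC point in each panel, is lowest for Rpl28.

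Paralog pairs were compared as the log2 ratio of paralog to parent in each library, with 0.5 added to each CPM, which library scaling hardly changes, and with a 2-sided exact permutation test over all 369600 assignments of the libraries to 4 groups and p-values adjusted over 5 pairs. Rps27l counts per 100 Rps27 counts were 81.9, 85.5 and 116 in early, 44.5, 55.5 and 54.8 in intermediate, 32.9, 34.2 and 28.9 in full and 29.9, 30.7 and 31 in BEC. The early libraries were all above the intermediate ones and these above full and BEC, which overlapped (adjusted p = 0.0013, where the smallest p the design allows is 6.49e-05 before adjustment). Rps27 itself was at 198 ± 30.5, 178 ± 25.1, 143 ± 22.9 and 148 ± 1.39 CPM in the 4 groups and was not called in the steps (adjusted p = 0.394, 0.0879 and 0.879).

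Rps4l counts per 100 Rps4x counts moved the other way, at 9.97, 9.2 and 6.91 in early, 9.29, 12.7 and 8.66 in intermediate, 15.8, 15.8 and 12.9 in full and 19, 19.4 and 15.5 in BEC (exact permutation, adjusted p = 0.00714). Early and intermediate overlapped, full was above both, and full and BEC overlapped. Rpl7l1 per 100 Rpl7 was 24.5, 27 and 33.7 in early, 26.8, 31.7 and 29.5 in intermediate, 28.1, 28.8 and 30.5 in full and 20.1, 23.2 and 22.7 in BEC, and Rpl22l1, the paralog of Rpl22, was at 30.7, 20.8 and 35.4 in early, 30.8, 30.5 and 29 in intermediate, 27.1, 27.4 and 26.8 in full and 11.8, 21.6 and 21.8 in BEC per 100 Rpl22. BEC was below intermediate and full in both, and neither pair passed (exact permutation, adjusted p = 0.0562 and 0.063), with a range of 0.0106 to 0.212 for Rpl7l1 and 0.0109 to 0.254 for Rpl22l1 when 1 library was left out. Rpl7l1 passed without early replicate 1 or 3 (0.0328 and 0.0106) and Rpl22l1 without early replicate 2, and the highest values were those without BEC replicate 1. The test shuffled all 12 libraries freely; with groups shuffled only among libraries of the same replicate number, a setting added after the data were seen, the adjusted p (exact permutation) was 0.00868 for Rps27l and for Rps4l, 0.0897 for Rpl7l1 and 0.137 for Rpl22l1. Rpl36al, which the naming rule leaves out, had 0.996 ± 0.272 counts per 100 Rpl36a counts in early and 0.342 ± 0.170 in full (exact permutation, adjusted p = 0.287). Reads shared within a pair would move these ratios, and how the counting treated them is not given in the sources used here.

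**Figure D5:**
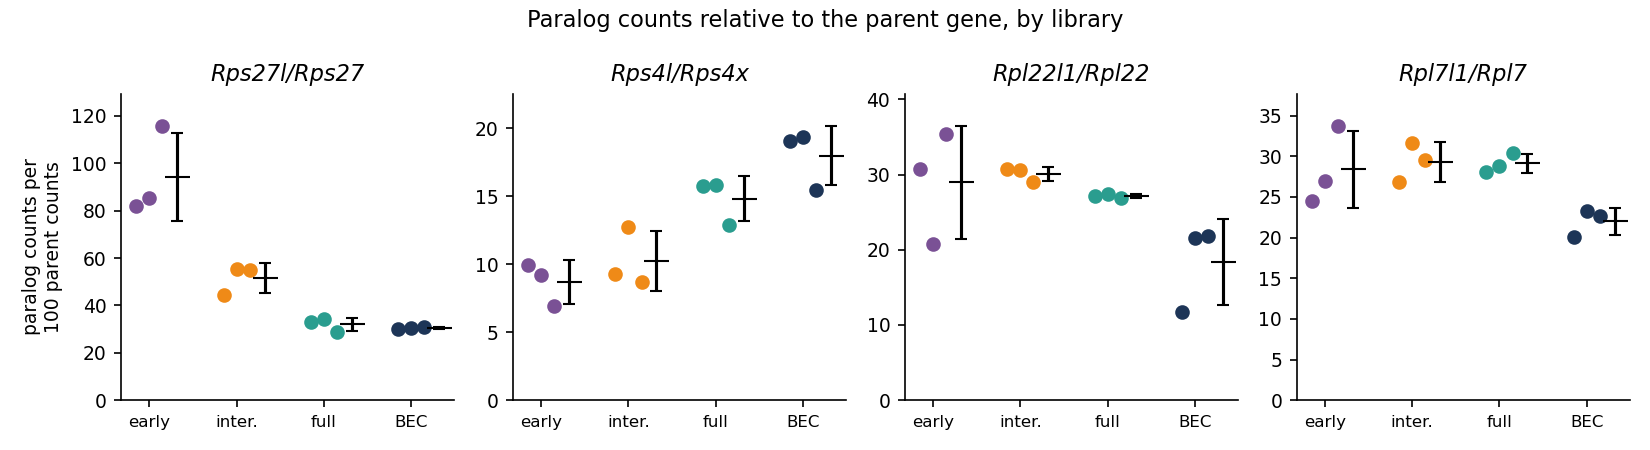
Counts of 4 paralogs per 100 counts of the parent gene in each of 12 libraries, with mean ± SD of 3 per group. Rps27l per Rps27 falls from 94.3 in early to 30.5 in BEC and Rps4l per Rps4x rises from 8.69 to 18.0, while the other 2 pairs are lowest in BEC.

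Genes that act beside the ribosomal proteins were counted from lists of the pathway. Of 5 ribosomal protein genes that the naming rule misses, Fau and Rack1 among them, 1 was lower from early to intermediate, 3 from intermediate to full, 0 between full and BEC by edgeR (0 at an unadjusted p under 0.05) and 4 from early to BEC, and 0 were higher in any of these (0 at an unadjusted p under 0.05). Of all genes 25.7%, 19.8%, 10.6% and 33.0% were lower and 28.7%, 20.8%, 10.7% and 40.0% higher. With total counts 2 were higher and 0 lower in the first step, 0 and 1 in the second, 0 and 0 between full and BEC and 1 and 0 from early to BEC. On that scale 59.4% of all genes were higher and 10% lower in the first step, and 32.3% and 12.2% in the second. From early to BEC these shares were 65.8% and 16.2%, and between full and BEC 1737 and 1718 of 16210 genes were. Rack1, a scaffold on the small subunit, was at 492 ± 34.7, 472 ± 7.0, 355 ± 17.1 and 363 ± 9.02 CPM in the 4 groups (intermediate to full -0.41 ± 0.08, adjusted p = 0.00157, with total counts -0.21, adjusted p = 0.0505), and with total counts it was higher from early to BEC, at 0.43 (adjusted p = 2.54e-04). Fau, the ubiquitin-like fusion of Rps30, was at 221 ± 15.1, 170.3 ± 12.8, 134 ± 14 and 138 ± 5.99 CPM (early to intermediate -0.38 ± 0.10, adjusted p = 0.00479), and with total counts it was higher at 0.29.

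Of 20 elongation and other TOP factors, 10 were lower and 1 higher from intermediate to full on the TMM scale (19.8% and 20.8% of all genes), and 2 were lower and 2 higher with total counts (12.2% and 32.3%). From early to intermediate 6 were lower and 2 higher (25.7% and 28.7%), against 0 and 20 with total counts (10% and 59.4%). From early to BEC 15 were lower and 3 higher (33.0% and 40.0%), against 1 and 16 with total counts (16.2% and 65.8%). Eef1a1, which brings aminoacyl-tRNA to the ribosome, was at 6133 ± 415, 5069.7 ± 22.2, 3799.9 ± 61.1 and 3639 ± 68.3 CPM (intermediate to full -0.42 ± 0.10, adjusted p = 0.00453, with total counts -0.22, adjusted p = 0.0787). Tpt1, a TOP gene of growth control, was at 1303 ± 33.9, 1398 ± 66.4, 977 ± 38.8 and 884 ± 46.9 CPM (-0.52 ± 0.09, adjusted p = 4.65e-04, with total counts -0.32, adjusted p = 0.00978). Vim, an intermediate filament gene of the same list, was at 28.1 ± 2.14, 288 ± 44.5, 245 ± 21.4 and 10.9 ± 2.51 CPM in the 4 groups.

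Of 29 initiation factors, 20 were lower and 1 higher from early to intermediate on the TMM scale (25.7% and 28.7% of all genes), and 1 was lower and 17 higher with total counts (10% and 59.4%). Eif5a, which relieves stalled ribosomes, fell from 547 ± 45.7 to 269.9 ± 14.9 CPM (-1.02 ± 0.10, adjusted p = 1.03e-06, and with total counts -0.35, adjusted p = 0.00495). Its paralog Eif5a2 rose from 0.151 ± 0.262 to 3.05 ± 0.815 and 10.5 ± 0.225 CPM and was called in both steps (adjusted p = 4.51e-05 and 7.41e-04).

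For the lists that follow, the shares of all genes were 25.7% lower and 28.7% higher in the first step and 19.8% and 20.8% in the second on the TMM scale, and 10% and 59.4%, then 12.2% and 32.3%, with total counts. Differences between lists were not tested. Of 19 genes of RNA polymerase I and its factors, which make the large ribosomal RNA precursor, 6 were higher and 2 lower from early to intermediate (16 and 0 with total counts), and 0 were higher and 1 lower from intermediate to full by edgeR (0 and 5 at an unadjusted p under 0.05). Taf1c, a subunit of the polymerase I selectivity factor, rose from 6.29 ± 2.1 to 16.2 ± 2.47 CPM, with 1.37 on the log2 scale (adjusted p = 6.82e-05). Of 80 assembly factors, 22 were lower and 4 higher from early to intermediate and 26 and 1 from intermediate to full, against 1 and 62, and 2 and 7, with total counts. The shares of polymerase I genes called higher and of assembly factors called lower in the first step were near those of all genes on the TMM scale. Pno1, a small-subunit assembly factor, fell from 51.3 ± 2.2 to 25.4 ± 4.27 CPM and was lower on both scales (-1.01, and -0.35 with total counts). Tcof1, the treacle protein of polymerase I transcription, was higher on both (0.75 and 1.42).

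Among 28 regulators of ribosome synthesis, 6 were higher and 9 lower from early to intermediate (20 and 0 with total counts), and 1 and 8 from intermediate to full (4 and 2). Myc, which drives transcription of ribosomal genes, was at 52.2 ± 9.79, 98.6 ± 31.8, 58 ± 23.8 and 34.4 ± 5.19 CPM in the 4 groups, highest in intermediate (0.92 ± 0.27, adjusted p = 0.0116, then -0.77 ± 0.27, adjusted p = 0.0361). The second of these did not pass with total counts, at -0.56 (adjusted p = 0.102). Its relative Mycn rose in both steps, from 0.199 ± 0.174 to 0.868 ± 0.017 and 5.39 ± 1.31 CPM. Eif4ebp1, the translational repressor that mTOR phosphorylates, fell in both, from 119 ± 48.2 to 57.7 ± 12.4 and 24.9 ± 1.99 CPM, though the first step did not pass with total counts (-0.38, adjusted p = 0.137).

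Because Rpl5, Rpl11 and Rps27l connect to p53, its gene and 2 of its targets were read as well. Trp53 was at 51.2 ± 1.77, 99 ± 2.26, 99.9 ± 1.84 and 92.3 ± 5.4 CPM in the 4 groups and higher in intermediate than in early on both scales (0.95 ± 0.07, adjusted p = 1.85e-07, and 1.62 with total counts). Cdkn1a was at 40.5 ± 21.4, 89.2 ± 17.6, 63.8 ± 7.05 and 35.2 ± 5.4 CPM (1.14 ± 0.29, adjusted p = 0.0044, and 1.81 with total counts). Mdm2 was at 74.5 ± 10.9, 75.5 ± 3.61, 65.9 ± 4.54 and 65 ± 2.36 CPM and was not called between intermediate and early on the TMM scale (0.02 ± 0.10, adjusted p = 0.896), but was higher at 0.69 with total counts. On the TMM scale Rps27l went down in the step in which Trp53 and Cdkn1a went up and Mdm2 was not called. Activity of p53 was not measured, and a link between these values was not tested.

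Other families with short transcripts gave a scale for these values, though they were not matched to the members in length. The median longest transcript was 1884 bases for mitochondrial ribosomal proteins, 944.5 for respiratory subunits, 1410 for proteasome subunits and 1868.5 for Sm and Lsm proteins. For the members it was 1054. Mitochondrial ribosomal proteins were lower for 70 of 77 genes from early to intermediate and 54 from intermediate to full, and 0 were higher by edgeR (0 at an unadjusted p under 0.05 in both), with medians of -0.57 and -0.43. With total counts 16 were higher and 7 lower in the first step, and 0 were higher and 26 lower in the second. Subunits of respiratory complexes I and IV were lower for 48 of 50 and 44 of 50 in these steps, and 0 and 1 were higher by edgeR (0 and 1 at an unadjusted p under 0.05), with medians of -0.89 and -0.53. With total counts 21 were lower and 2 higher in the first step and 32 and 1 in the second. Of 18 core proteasome subunits 16 and 13 were lower and 0 and 1 higher by edgeR (0 and 1 higher at an unadjusted p under 0.05), with medians of -0.52 and -0.36. With total counts 1 was lower and 4 higher in the first step and 2 and 2 in the second. Sm and Lsm proteins of the spliceosome had 4 higher and 3 lower of 24 in the first step and 1 and 3 in the second, with medians of 0.02 and -0.17, and with total counts 22 and 4 were higher and 0 lower. Of 50 ribosomal pseudogenes tested, 2 were higher in the first step (10 with total counts) and 1 was lower in the second (1). The cytosolic members, at -0.19 and -0.39, lay between the mitochondrial ribosomal proteins and the Sm and Lsm proteins in both steps, and with total counts as well (0.10, 0.48 and 0.68, then -0.23, -0.19 and 0.03), an order that is a description of medians and was not tested.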

How the data were processed

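RNA-seq was analysed from 12 libraries, 3 in each of 4 sorted populations. Raw gene-level counts were deposited by the authors. Per the submitters' processing notes, the tools were STAR 2.7.10b, featureCounts 2.0.1 and DESeq2, with the genome build GRCm39. The gene annotation, strandedness and treatment of multi-mapping reads are not given in the sources used here. Every column matched a sample (0 without one).

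Counts were tested with edgeR 4.0.16 (R 4.3.3; TMM factors, filterByExpr, quasi-likelihood, 1 term per group, all 12 libraries, Benjamini-Hochberg over the 16210 genes kept, adjusted p under 0.05). In the library with the lowest share the filter kept 99.86% of counts, and the common biological variation was 14.8%. In a test on simulated data for intermediate against early over 14052 genes, 99% of 200 genes changed by 1 on the log2 scale were recovered and 4.35% of calls were false. Counts differed between replicates of each group beyond sampling noise (chi-square per degree of freedom at least 5.23). Alternatives were other scalings, filters, tools (DESeq2 1.42.0, limma 3.58.1 loaded with edgeR) and fits, and leaving out libraries. Paralog ratios used 0.5 added to CPM and SciPy 1.17.1 (Python 3.11.15). Transcript lengths came from GENCODE M21, with all 84 members matched by symbol.

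Same-numbered libraries deviated together between early and intermediate (r = 0.293, 0.121 and 0.221), intermediate and full (0.322, 0.137 and 0.296) and full and BEC (0.257, 0.170 and 0.240). They did so less between early and BEC (0.0869, 0.0442 and 0.145). Replicate numbers may thus pair libraries across the 4 groups. The main fits held no term for the number, and fits with it as a block are given as alternatives. Any such pairing comes from this check and not from the labels.

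Named members were the 3 called genes with the largest and the 3 with the smallest fold change in each comparison, the 4 highest and 4 lowest per kb, the paralogs with their parents, and stalk, 5S and other well-known members; from each other list, the called genes at either end of each step. Genes named beyond this rule (Rps15a, Rpl38, Rpl23a and the genes Rack1, Eef1a1, Myc, Trp53, Cdkn1a and Mdm2 among them) were added for context. The members and all lists were chosen with earlier results of these data known. Some items that these rules would name are not reported here.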

Additional observations from a re-analysis of the deposited data

How the results depend on the processing

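The counts of members called and their medians depended on scaling. From early to intermediate 72 members passed with total counts (median 0.48), 35 with median-of-ratios factors, 35 with DESeq2, 14 with upper-quartile factors, 11 with no filter and 4 against a minimum 1.2-fold change. Of all genes tested, 11246, 8814, 8968, 8922, 8629 and 7187 passed, in that order. The number tested was 16210, but 20265 with DESeq2 and 30230 with no filter. From intermediate to full 11 passed with total counts (median -0.19), 34 with length and GC offsets (median -0.24) and 14 against a minimum 1.2-fold change. Of all 16210 genes, 7211, 6611 and 4712 passed, in that order. Between full and BEC 2 passed with total counts, median-of-ratios or upper-quartile factors, a mean of at least 50 counts, length and GC offsets, the 6 libraries of the 2 groups or DESeq2, 3 with no filter (Rpl7l1, Rpl22l1 and Rpl23a) and 0 against a minimum 1.2-fold change (edgeR; 1 at an unadjusted p under 0.05). Of all genes, 3455, 3458, 3471, 2900, 3652, 4086, 3694, 3611 and 2446 passed, in that order. The number tested was 16210, but 12245 with a mean of at least 50 counts, 15539 with 6 libraries, 19679 with DESeq2 and 30230 with no filter. From early to BEC 44 passed with total counts (median 0.24), where 13291 of 16210 genes did. The median was -0.44 with upper-quartile factors and -0.42 with length and GC offsets. The cause of these shifts was not tested.

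With the replicate number as a block, 25, 68, 2 and 76 members passed in the 4 comparisons and 78 among the groups, where 57.2%, 45.0%, 25.3%, 74.8% and 77.9% of all genes did. Block and length and GC offsets together gave 41 from intermediate to full (median -0.24), 3 between full and BEC and a median of -0.42 from early to BEC. Of all 16210 genes, 7433 passed from intermediate to full and 4413 between full and BEC. The block alone ended none of the calls given for the strongest and weakest called members of each comparison, and between full and BEC it added Rplp0.

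Scaling to the members' own total, the replicate block for paralog ratios, which left each pair on its side of the threshold, and leaving out BEC replicate 1 jointly with the block or with that scaling were chosen after seeing the data. The first left 9, 3, 26 and 17 members called from early to intermediate, intermediate to full, early to BEC and among the groups (medians 0.013, -0.022 and -0.033 for the first 3). Of all 16210 genes, 8888, 8418, 12534 and 12922 were called there. Medians near 0 follow from that scaling, which holds the members' summed counts equal, and are no check of the TMM-scale values. Without BEC replicate 1, the block gave 3 between full and BEC (median 0.056), where 3807 of 16696 genes were called. The members' total without that library gave 23 from early to BEC (median -0.049), where 12343 of 16696 genes were.

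Leaving out 1 library of the groups compared gave 14 to 25, 43 to 67, 1 to 1 and 69 to 78 members called, 72 to 78 among the groups, and medians of -0.23 to -0.16, -0.44 to -0.34, -0.080 to 0.014 (0.014 without BEC replicate 1) and -0.67 to -0.59. These fits tested 16664 to 16829 genes. Of all genes 8123 to 8478, 5276 to 6144, 2644 to 2969 and 11438 to 11682 were called, and 11975 to 12421 among the groups. The adjusted p of paralog ratios ran from 0.0109 to 0.254 for Rpl22l1 and 0.0106 to 0.212 for Rpl7l1. The share of counts was 1.52% to 1.59%, 2.09% to 2.21%, 1.88% to 1.94% and 1.83% to 1.95% in the 4 groups. Without mitochondrial genes it was 1.68% in early, and without the 50 most abundant other genes 2.25%, 2.7%, 2.24% and 2.18%.

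Signs turned for Rpl13a (0.010), Rps2 (0.16), Rpl37 (0.42) and Rpl14 (0.40) from early to intermediate with total counts, for Rpl3 (0.12) and Rpl22 (0.11) from intermediate to full within the members' total, and from early to BEC for Rps14 (0.65 with total counts, 0.053 and 0.052 with length and GC offsets without and with the block, 0.37 within the members' total, 0.36 there without BEC replicate 1) and Rpl3 (0.65 with total counts, 0.37 within the members' total, 0.33 there without BEC replicate 1). The values within the members' total measure change against the other members, which is another quantity than the TMM-scale change. For the 6 members under 25 CPM, counts of 7 to 257 per library limit the precision.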
